A study of Saccharomyces cerevisiae with 5 samples.

Results

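Transcript levels of the autophagy genes were read in growing, fed budding yeast, S. cerevisiae, relative to the typical gene of the same cells. The genes were chosen by name: any gene called ATG and a number, together with APE1 (LAP4), AMS1, PEP4, PRB1, YPT7 and VAM3. The gene names in the array files are old, and 0 genes there carry an ATG name, so the names as deposited gave 6 genes, namely APE1 under its older symbol LAP4 and the other 5 named above. Current RefSeq symbols for assembly R64, reached through the systematic names, added 36 ATG genes and made 42 of the 6256 genes on the array. This extension was decided after the names in the files had been seen, and results for the 6 genes are given beside those for all 42. Of the symbols in the RefSeq table that fit the rule, only ATG44 has no probe.

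The samples were 5 total RNA preparations of the strain that the labels call Sigma 1287b, L5366 (Sigma1278b L5366 in the paper), grown in rich medium at 30 °C to mid-log phase. Each was labelled with Cy3 and hybridized on its own two-colour Agilent array against Cy5-labelled genomic DNA of the same strain, with no dye swap. All 5 arrays form 1 group with no starved or mutant samples, and the labels do not say whether each RNA came from a separate culture. The study's methods describe biological replicates, but fewer of them than these arrays, so part of the spread between arrays may be technical. Arrays 1 to 3 belong to a first scan session and arrays 4 and 5 to a second one, which holds a slide of its own. Array 1 lay on slide 1, arrays 2 and 3 on slide 2, and arrays 4 and 5 on slide 3. The tests of the main processing treat the 5 arrays as independent.

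Autophagy encloses part of the cytoplasm in a membrane sac that fuses with the vacuole, the digestive compartment of yeast, where hydrolases break the cargo down. The Atg1 kinase starts the sac, Atg9 vesicles and a lipid kinase supply and mark its membrane, and a pair of ubiquitin-like systems attaches Atg8 to it. Starvation is the best known inducer, but growing cells run a related route, the Cvt pathway, that carries the enzymes Ape1 and Ams1 to the vacuole.

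The level of a gene is log2 of its RNA signal over its genomic DNA signal, averaged over the 7 spots of its 1 probe and given relative to the median gene, so that 0 is the median gene and 1 is a 2-fold difference. Levels are per probe and not per length of transcript. Across the 42 genes, levels and coding length had a Spearman rho of 0.18, against 0.048 over the 5756 genes with a length in the RefSeq table, given as a description in which all points share the same libraries. All 42 genes were well above background in the genomic DNA channel on all 5 arrays. In the RNA channel this held for 40 of them, or 95.2%, against 90.7% of all genes.

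Most autophagy genes lay below the median gene in the main processing. Of the 42, 35 were below it and 6 above, while ATG2 at -0.049 ± 0.054 (SD, n = 5) could not be told from it (limma, adjusted p = 0.15). Over all 6256 genes, 47.6% were called below and 47.7% above by the same test at an adjusted p of 0.05. The counts came to 26 below and 12 above with Agilent's processed signals, and to 21 below and 19 above with loess normalization within arrays. Calls over all genes were not counted under either alternative, so these counts cannot be set beside the shares of the main processing. The 36 ATG genes divided into 32 below, 3 above and 1 not called. The 6 genes found by the deposited names divided evenly, with YPT7, PRB1 and PEP4 above and VAM3, APE1 and AMS1 below.

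The median level of the 42 genes was -1.08, -1.10, -1.23, -1.09 and -1.10 on arrays 1 to 5, or -1.12 ± 0.063 (SD, n = 5), where all genes have 0 by construction. For the 6 genes found by the deposited names it was 0.080 ± 0.094, negative with loess (-0.39), processed signals (-0.50) and normexp (-0.30), and for the ATG genes -1.18 ± 0.049. Loess moved the median of the 42 to -0.14, and processed signals moved it to -0.38. Loess also took TDH3, RPL3, RPS3 and HXT3, a list of genes known to be high in fed cells, from a median of 5.09 to -0.15. Processed signals took the median of that list to 0.23.

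The bulk of the set was narrow beside all genes, with an interquartile range of 0.90 against 2.40, although its extremes were 6.19 apart. That range was 0.91 for the genes of the vacuolar proton ATPase and 1.22 for the VPS genes of vacuolar protein sorting, so it was not particular to the set. More than 2-fold above the median gene were 3 members, more than 2-fold below it 22, and 17 lay between. The lowest 25% of all genes held 17 members and the highest 25% held 3, while the lowest 10% held 4 and the highest 10% held 0. The SD between arrays had a median of 0.074 over the members and 0.080 over all genes.

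**Figure D1:**
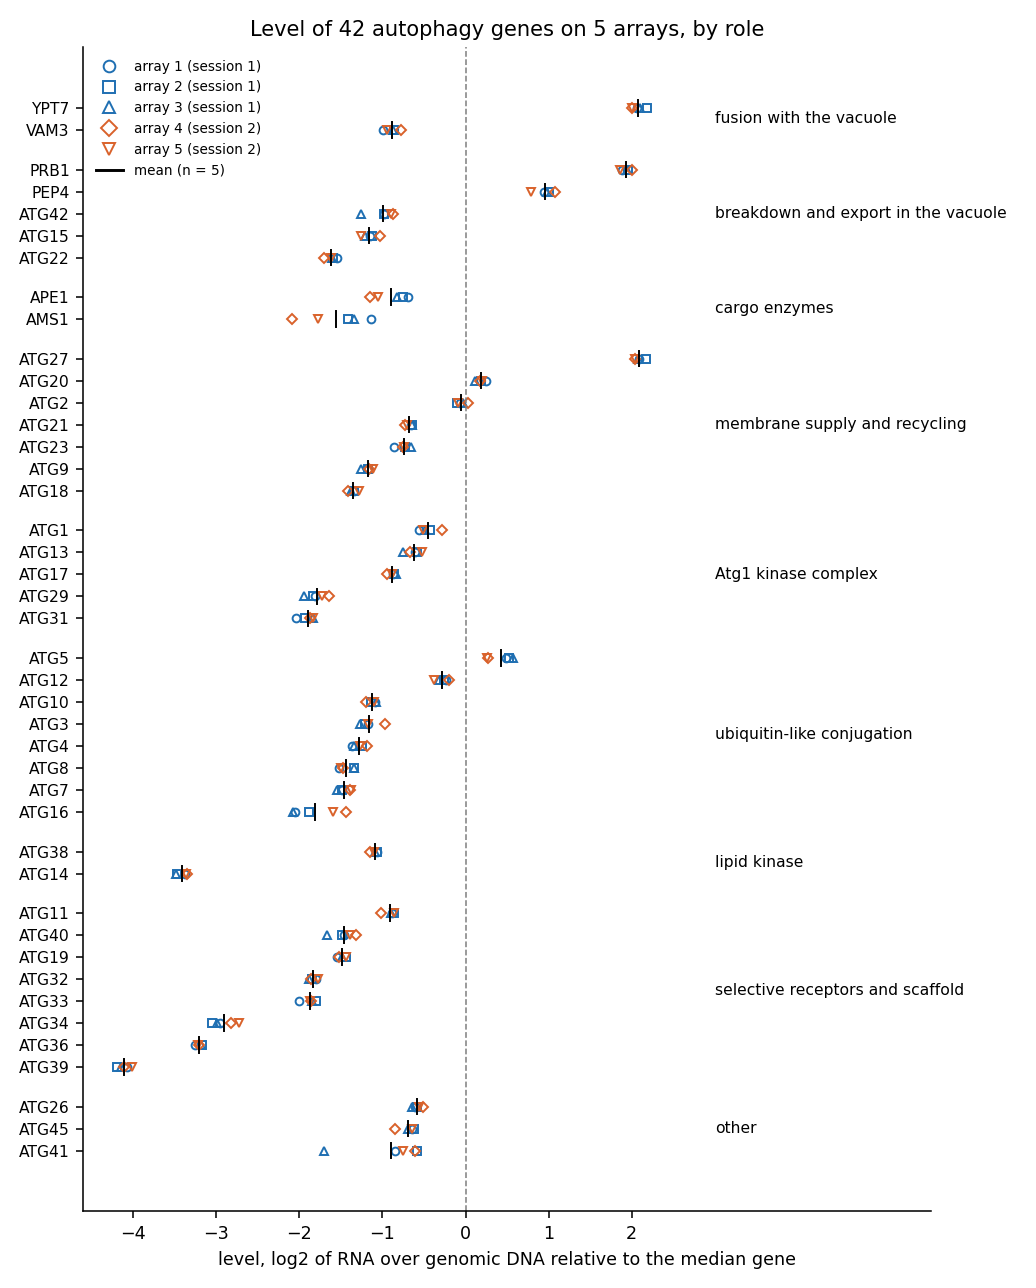
Level of each of the 42 autophagy genes on each of 5 arrays, on the x axis as log2 of RNA over genomic DNA relative to the median gene (dashed line at 0), with genes on the y axis grouped by role. Symbols are arrays, colours are scan sessions and black ticks are means. ATG27, YPT7 and PRB1 stood near 2 while ATG34, ATG36, ATG14 and ATG39 stood between -2.91 and -4.11, and loess normalization turned the sign of 16 of the genes, AMS1 among them at a value that was not called.

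The Atg1 kinase complex starts the sac, and all 5 of its genes measured here lay below the median gene, with a median of -0.88 (-0.35 with loess and -0.42 with processed signals). ATG1, the protein kinase itself, read -0.56, -0.42, -0.49, -0.28 and -0.52 on arrays 1 to 5. ATG13, its regulatory subunit that Tor signalling acts on, read -0.61, -0.58, -0.75, -0.67 and -0.52. ATG17, the scaffold of the starvation complex, read -0.88, -0.87, -0.84, -0.94 and -0.88. These 3 stayed within 2-fold of the median gene on every array. ATG29 and ATG31, which bind Atg17, were lower, at -1.79 ± 0.11 and -1.90 ± 0.086. ATG31 read -2.04, -1.93, -1.83, -1.87 and -1.84 on the 5 arrays, and all of these values lay below every value of ATG1, ATG13 and ATG17. With loess ATG17 was above the median gene (0.33), as was ATG29 (0.18), and with processed signals ATG17 came to 0.034 and was not called.

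Membrane supply and recycling held the highest member. ATG27, a membrane protein that travels with Atg9, read 2.08, 2.18, 2.07, 2.04 and 2.04 on arrays 1 to 5, or 4.23 times the median gene (a log2 level of 1.42 with loess), and lay at percentile 87.1 of all genes. Its relatives in this step were far lower. ATG9, the lipid scramblase of the small vesicles that seed the sac, averaged -1.18 ± 0.049 and ATG23, a peripheral protein of the same vesicles, -0.75 ± 0.074. ATG2, which transfers lipid to the growing sac, was near the median gene, and above it with normexp (0.18), processed signals (0.39) and loess (0.66). ATG18 and ATG21, which bind the lipid made by the lipid kinase, averaged -1.35 ± 0.050 and -0.68 ± 0.041. ATG20, a sorting nexin of endosomes, was slightly above the median gene at 0.18 ± 0.045 (adjusted p = 3.2e-04). ATG9 and ATG23 were above the median gene with loess, and with processed signals ATG23 was above it and ATG9 (0.098) was not called, and ATG20 fell below the median gene when RNA was not divided by genomic DNA (-0.77).

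The genes of the lipid kinase that is particular to autophagy were both low. ATG14, its targeting subunit, read -3.37, -3.48, -3.48, -3.36 and -3.37 on arrays 1 to 5, or 10.6-fold below the median gene, and averaged -1.88 with processed signals and -1.31 with loess. ATG38, which holds the complex together, averaged -1.10 ± 0.034, and came to -0.050 with loess, where it was not called. The shared parts of this kinase and the partner nexins carry other names and are not among the 42. Of these 5 genes (VPS34, VPS15, VPS30, SNX4 and SNX41), 1 was above and 3 below the median gene and 1 was not called, with a median of -0.11 that turned to 0.11 with loess.

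The 8 conjugation genes attach Atg8 to the membrane, and 7 of them were below the median gene. ATG8, the ubiquitin-like protein that coats the sac, read -1.52, -1.34, -1.35, -1.47 and -1.50 on arrays 1 to 5. ATG12, the other ubiquitin-like protein, read -0.23, -0.26, -0.32, -0.20 and -0.39. ATG5, to which Atg12 is joined, was the only one above the median gene, at 0.49, 0.52, 0.58, 0.28 and 0.26. The values of ATG5 on arrays 4 and 5 lay below its values on arrays 1 to 3, although the difference between sessions was not called (adjusted p = 0.058). When RNA was not divided by genomic DNA, ATG5 came to -0.058 and was not called.

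The enzymes of both conjugation systems lay close together in the main processing. ATG7, the activating enzyme they share, read -1.49, -1.48, -1.55, -1.39 and -1.38 on arrays 1 to 5. ATG3, the E2-like enzyme for Atg8, read -1.17, -1.21, -1.27, -0.97 and -1.18. ATG10, the E2-like enzyme for Atg12, read -1.09, -1.13, -1.08, -1.19 and -1.10. All values of these 3 enzymes lay between -1.55 and -0.97. They lay further apart under other processing. ATG7 minus ATG3 was 1.77 with loess, 0.95 with processed signals and -1.28 when RNA was not divided by genomic DNA. ATG4, the protease that trims Atg8 and later releases it, read -1.36, -1.25, -1.34, -1.19 and -1.27. ATG16, which binds the Atg12-Atg5 pair, was the lowest of the group at -1.81 ± 0.28 and spread more widely than the other 7. With loess normalization ATG4, ATG7, ATG10, ATG12 and ATG16 all came out above the median gene, and with processed signals ATG7, ATG12 and ATG16 did.

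Receptors for selective cargo were the lowest of the role groups of more than 2 genes, with a median of -1.85 over 8 genes, all below the median gene and 7 of them in the lowest 25% of genes. That median was -0.81 with loess and -0.96 with processed signals. ATG11, the scaffold that links receptors to the kinase, was the highest of them and read -0.88, -0.86, -0.90, -1.02 and -0.86 on arrays 1 to 5. ATG19, the receptor for Ape1 and Ams1, read -1.55, -1.44, -1.49, -1.52 and -1.44. ATG32 and ATG33, which act in the removal of mitochondria, averaged -1.83 ± 0.046 and -1.88 ± 0.073. ATG40, a receptor for the endoplasmic reticulum, averaged -1.47 ± 0.13, and turned positive with loess (1.30) and processed signals (0.42).

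The other receptors were near the bottom of the genome. ATG36, the peroxisome receptor, read -3.25, -3.17, -3.19, -3.21 and -3.22 on arrays 1 to 5. ATG34, a receptor for Ams1 that is related to Atg19, read -2.95, -3.06, -2.99, -2.82 and -2.73. ATG39, a receptor for the nuclear envelope, had the lowest mean of all 42 and read -4.08, -4.20, -4.15, -4.11 and -4.01. ATG34 and ATG39 were the 2 members whose RNA signal was not well above background throughout: it was on arrays 1 to 3 and was not on arrays 4 and 5. Their RNA intensities were 155, 97.6, 93.7, 130 and 171 for ATG34 and 127, 74.4, 103, 117 and 145 for ATG39 on arrays 1 to 5, so their levels are less certain than the others. Both were brighter on arrays 4 and 5 than on arrays 2 and 3. The lower detection on arrays 4 and 5 was not particular to these genes. Over all gene spots, 98.7, 98.8 and 97.7% were well above background in RNA on arrays 1 to 3, against 91.7 and 90.9% on arrays 4 and 5. ATG34 was positive with loess (0.69).

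The Cvt pathway cargo was below the median gene as well. APE1, aminopeptidase I, read -0.69, -0.75, -0.83, -1.15 and -1.05 on arrays 1 to 5. AMS1, vacuolar alpha-mannosidase, read -1.14, -1.41, -1.35, -2.09 and -1.78. For both genes the values on arrays 4 and 5 lay below all values on arrays 1 to 3. AMS1 also had the largest mean SD between the 7 spots of a probe among the 42 genes, at 0.26, against a median of 0.12 over all genes. AMS1 came to 0.0026 with loess and was not called there.

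Fusion with the vacuole is served by YPT7 and VAM3, which differed widely. YPT7, the Rab GTPase of the vacuole, read 2.07, 2.18, 2.10, 2.01 and 2.004 on arrays 1 to 5. VAM3, a vacuolar SNARE, read -0.99, -0.86, -0.87, -0.78 and -0.95. Every array put YPT7 above and VAM3 below the median gene. Of 10 other genes matched from a fixed list of vacuole fusion genes, 6 were above and 3 below. Their median was 0.31 and became -0.18 without division by genomic DNA. VPS11 and VPS18 were on that list but were not matched by name.

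Breakdown in the vacuole combined high and low genes. PRB1, proteinase B, read 1.89, 1.95, 1.94, 2.001 and 1.86 on arrays 1 to 5, or 3.81 times the median gene, and averaged 0.87 with loess. PEP4, proteinase A, which activates other hydrolases, read 0.94, 1.003, 0.98, 1.08 and 0.79. The other 3 genes were low: ATG42, a carboxypeptidase, at -0.999 ± 0.16, ATG15, the lipase that opens the delivered vesicle, at -1.16 ± 0.086, and ATG22, an amino acid exporter, at -1.62 ± 0.057. PEP4 turned to -0.45 with processed signals and -1.01 with loess, and ATG42 turned positive under both. Among 7 further vacuolar hydrolases, 6 were above and 1 below the median gene, with a median of 1.19 that came to 0.34 with loess and 0.44 with processed signals.

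The remaining 3 genes were not placed in these role groups. ATG26, a sterol glucosyltransferase, averaged -0.59 ± 0.050. ATG45 averaged -0.69 ± 0.095 and was above the median gene with loess (0.26) but not called with processed signals (0.068). ATG41, which acts with Atg9, had the largest SD of all 42 and read -0.85, -0.58, -1.71, -0.61 and -0.76 on arrays 1 to 5. Array 3 stood apart for this gene, with an RNA intensity of 522 against 1207 to 1469 on the others and a DNA intensity of 13716 within the range of 13681 to 17570.4. On the other 4 arrays its values lay between -0.85 and -0.58.

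Ordered by mean level, the 42 genes were crowded in the middle. ATG27 and YPT7 differed by 0.011 ± 0.024 and kept their order on 3 of 5 arrays only. From YPT7 down to ATG26 each gene exceeded the next on 5 of 5 arrays, in the order YPT7, PRB1, PEP4, ATG5, ATG20, ATG2, ATG12, ATG1 and ATG26. Between ATG26 and ATG31 only ATG23 over ATG17 and ATG9 over ATG4 kept their order on 5 of 5 arrays. At the bottom, ATG31, ATG36 and ATG14 stood in that order on all arrays. ATG34 fell between ATG31 and ATG36, and ATG39 below ATG14, on arrays 1 to 3, the arrays where their RNA was above background. In all, 14 of 41 neighbouring pairs kept one order on 5 of 5 arrays, and 3 of these involve ATG34 or ATG39. This order is that of the main processing, and with loess ATG34 came to 0.69 and ATG39 to -0.87.

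Genes that work together in 1 step were then compared within each array as 10 pairs (exact two-sided sign-flip permutation test over 5 arrays, whose smallest possible p is 0.0625, so no pair can pass 0.05). YPT7 minus VAM3 had the widest gap at 2.96 ± 0.11 (SD, n = 5), a 7.78-fold ratio, and was 1.78 with loess and 2.01 with processed signals. ATG8 lay 2.23-fold below ATG12, with differences of -1.29, -1.08, -1.02, -1.27 and -1.12 on arrays 1 to 5, and without division by genomic DNA the mean difference was -0.47. PEP4 lay below PRB1 by a difference of -0.97 ± 0.061, although without division by genomic DNA the difference was 0.13. All 3 of these pairs kept their sign on 5 of 5 arrays (exact p = 0.0625, adjusted p = 0.078 over 10 pairs).

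APE1 exceeded AMS1 by 0.66 ± 0.19 and its receptor gene ATG19 by 0.59 ± 0.21, on 5 of 5 arrays each, and both differences turned negative with loess and processed signals. ATG7 was below ATG3 by a difference of -0.30 ± 0.079, which turned to 1.77 with loess. ATG8 minus ATG4 was -0.16 ± 0.11, and ATG1 minus ATG13 was 0.17 ± 0.15, with 1 array near 0 in each. ATG8 minus ATG4 depended on the processing, with -1.60 under loess, -1.20 under processed signals, -0.63 under normexp and 0.75 for RNA signal alone. For these 5 pairs too the exact p was 0.0625 and the adjusted p 0.078.

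In 2 pairs the mean difference was within its SD, which held for neither pair under loess, processed signals or normexp. ATG3 minus ATG10, the E2-like enzymes, was -0.038 ± 0.16 (exact p = 0.56, adjusted p = 0.56), and array 4 differed in sign from the other 4. With loess it was -0.87, with processed signals -0.47 and with normexp -0.23. ATG17 minus ATG11, the scaffolds of starvation and selective autophagy, was 0.023 ± 0.042 (exact p = 0.44, adjusted p = 0.49). It was 0.88 with loess, 0.48 with processed signals and 0.22 with normexp.

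**Figure D2:**
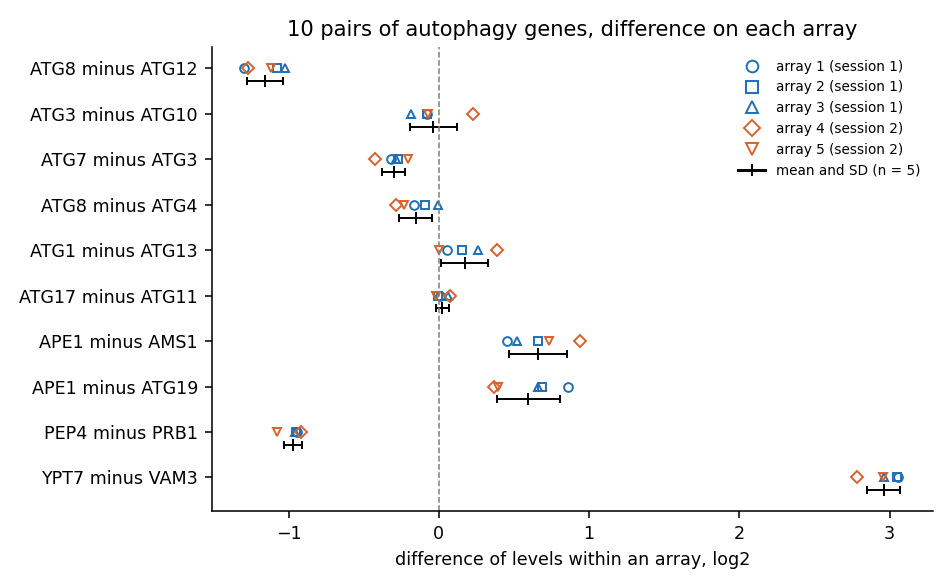
Difference of levels within each array for 10 pairs of autophagy genes, on the x axis in log2 units with the dashed line at no difference. Symbols are arrays, colours are scan sessions and bars give the mean and SD (n = 5). YPT7 minus VAM3 lay near 3 on all arrays, while ATG3 minus ATG10 and ATG17 minus ATG11 straddled 0, and 7 of the 10 differences changed sign under at least 1 alternative processing.

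The scan sessions were compared because they separate arrays 1 to 3 from arrays 4 and 5. Of the 42 genes, 3 differed between sessions (limma, adjusted p of 0.05), against 2.64% of all genes. At an unadjusted p of 0.05, 7 of the 42 did so, against 1262 of all 6256 genes. AMS1 differed by -0.64 in session 2 relative to session 1 (adjusted p = 0.033) and APE1 by -0.35 (adjusted p = 0.041). ATG16 differed by 0.49 (adjusted p = 0.029), having read -2.05, -1.89, -2.08, -1.43 and -1.60 on arrays 1 to 5. For all 3 genes the sessions did not overlap.

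RNA intensities of AMS1 were 824, 469, 801, 346 and 476 on arrays 1 to 5, and its DNA intensities ranged from 9629 to 11629.8. Intensities keep outlier spots and levels leave them out. An intensity need therefore not match its level, as with the 801 of AMS1 on array 3, where its level was -1.35. Those of ATG16 were 294, 195, 150, 306 and 328, dim beside a median RNA intensity of 1406 to 1997 over all gene spots. None of the 42 genes was called between sessions without array 2, 3, 4 or 5 (count of 0), when spots with an outlier mark were kept, or when background was corrected by normexp. The count rose to 22 with only spots well above background and to 12 with slide as a random block. Calls over all genes were not counted under either setting, so these counts cannot be set beside the share over all genes in the main processing. Session 2 and its slide cannot be told apart. The calls of AMS1 and APE1 as below the median gene held in each session alone.

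**Figure D3:**
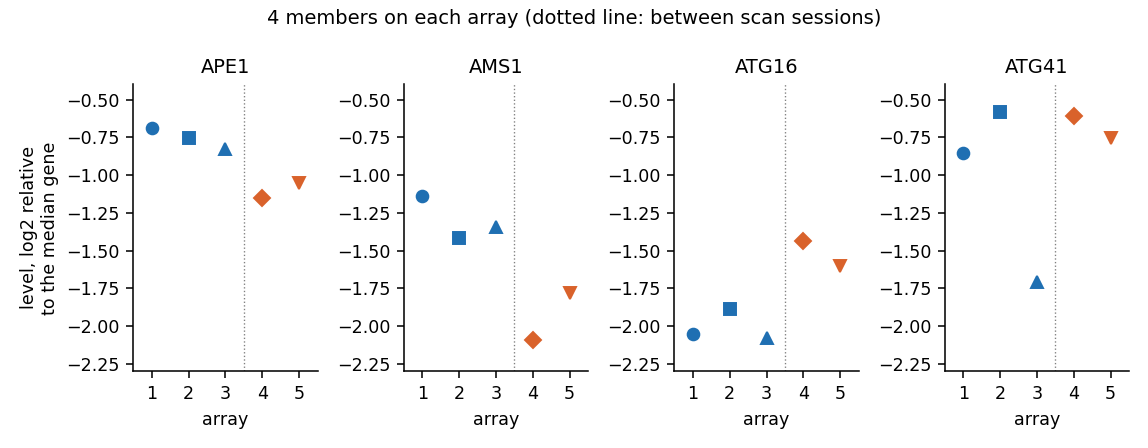
Level of APE1, AMS1, ATG16 and ATG41 on each array, on the y axis in log2 relative to the median gene, with the array number on the x axis and a dotted line between scan sessions 1 (blue) and 2 (orange). APE1 and AMS1 were lower and ATG16 higher on arrays 4 and 5, and ATG41 was low on array 3 alone.

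Set beside other genes of the vacuole, the autophagy genes were low. The 45 VPS genes, which sort proteins to the vacuole, had a median of -0.0043 ± 0.025, with 20 above and 18 below the median gene. All 16 genes of the vacuolar proton ATPase, which acidifies the organelle, were above it, with a median of 2.84 ± 0.028. The autophagy median lay below both on 5 of 5 arrays, a description with no test over genes. With loess the medians were -0.14 for autophagy, 0.12 for VPS and 0.35 for the ATPase, the same order over a much smaller range.

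**Figure D4:**
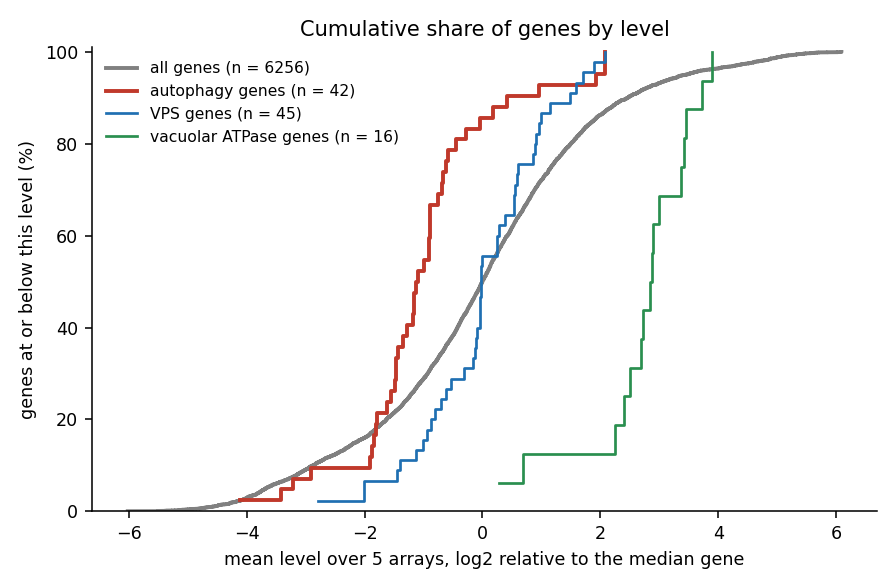
Cumulative share of genes (y axis, percent) at or below a mean level over 5 arrays (x axis, log2 relative to the median gene) for all 6256 genes, 42 autophagy genes, 45 VPS genes and 16 vacuolar ATPase genes. The autophagy curve lies left of the VPS and ATPase curves except at its top, where it crosses the VPS curve, and with loess normalization the medians of the 3 lists came within 1 log2 unit.

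Nutrient signalling sets when autophagy starts. Of 19 genes of nutrient control, 13 were above and 4 below the median gene, with a median of 0.20 that came to -0.023 with loess. The Tor kinase genes TOR1 (-0.73) and TOR2 (-0.48) were among those below. Of the known repressors of ATG genes on the list, RPH1 was also below (-0.71) and UME6 slightly above (0.17). The growth state was described with 2 further lists. Like all lists here, these were chosen with earlier results of these data known, so they are no independent check. All 4 genes known to be high in fed cells were above the median gene. All 7 genes known to rise on starvation or in stationary phase were below it, with a median of -2.67 that came to -0.24 with loess. Only 4 of these 7 had RNA well above background on all 5 arrays, and the median was -2.28 with only spots well above background. The autophagy median lay between these 2 lists, while with loess all 3 medians lay between -0.24 and -0.14.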

How the data were processed

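Per the file headers, Agilent Feature Extraction 10.1.1.1 produced the scanner output that the authors deposited, with a median intensity for each spot and its surroundings in both dyes and flags of 0 or 1. A second deposited table gives log2 Cy3/Cy5 ratios by probe. Its column medians ran from -3.01 to -2.57, so it was not centred, and it had a Pearson r of 0.997 to 0.998 with the scanner ratios (used as an alternative only).

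Each spot median was reduced by its local background median, control spots and spots with an outlier flag were dropped, and log2 ratios of the 7 spots of a probe were averaged. Quantile normalization between arrays used limma 3.58.1 (R 4.3.3). The outlier filter was not part of the design as first written, and the calls between sessions depend on it. RNA and DNA intensities are means over all 7 spots of a probe, with outlier spots kept. Detection of a gene on an array required the software's mark on at least 50% of its spots. Of 43792 gene spots per array, 1.41% to 3.81% were outliers, 90.9% to 98.8% were detected in RNA and 99.3% to 99.5% in DNA, and 0 were saturated. The number of arrays limits the precision.

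Each gene was tested against the median gene, and session 2 against 1, with limma (lmFit, eBayes) and Benjamini-Hochberg adjustment over all 6256 genes at 0.05. The fits were tested on simulated data. Every member is named, with values on each array for the 5 highest and 5 lowest, the 3 largest SDs, members not above background throughout, members that differ between sessions and members of the 10 pairs. The members, lists and pairs were chosen with earlier results of these data known. ATG41 and ATG45, absent from the written role lists, were placed under other roles. The written design planned current symbols as the alternative membership, and this was turned round because the array uses older names. Alternatives changed background, signal, normalization, denominator, spot summary and filters, left out arrays, used each session alone, and took slide as a random block. No source used here names the genome build of the array, so coordinates are not printed. A planned count of promoter motifs was not run because no sequence was used here.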

Additional observations from a re-analysis of the deposited data

Results flagged for a closer look

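In 53 sets of 5 array values (levels, pair differences and the median of the 42 genes), 5 had 1 array far from the other 4 by Dixon's criterion, where chance alone gives about 1 in 20. ATG41 had a level of -1.71 on array 3, with the other arrays between -0.85 and -0.58. ATG11 had -1.02 on array 4, with the others between -0.90 and -0.86. ATG3 minus ATG10 was 0.23 on array 4 and between -0.19 and -0.072 elsewhere. PEP4 minus PRB1 was -1.08 on array 5 and between -0.96 and -0.92 elsewhere. The median level of the 42 genes was -1.23 on array 3 and between -1.10 and -1.08 elsewhere, and 13 of the 42 genes had their lowest value on that array, against 21.1% of all genes.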

How the results depend on the processing

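Of the 42 genes, 24 kept their sign under every alternative and 18 did not under at least 1. Leaving out each array, each session alone, slide as a random block, median centring, other spot handling, no background subtraction and subtraction of negative controls reversed no gene.

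Loess, which sets the ratio to 0 at every brightness within an array, turned the sign of 16 genes: 0.25 for ATG10, 0.19 for ATG12, 0.18 for ATG29, 0.44 for ATG42, 0.69 for ATG34, 1.15 for ATG7, 1.30 for ATG40, 0.33 for ATG17, 0.47 for ATG4, 0.66 for ATG2, -1.01 for PEP4, 0.0026 for AMS1, 1.29 for ATG16, 0.83 for ATG9, 0.49 for ATG23 and 0.26 for ATG45. Processed signals turned 11: 0.096 for ATG12, 0.074 for ATG42, 0.41 for ATG7, 0.42 for ATG40, 0.034 for ATG17, 0.39 for ATG2, -0.45 for PEP4, 0.56 for ATG16, 0.098 for ATG9, 0.33 for ATG23 and 0.068 for ATG45. Of these, AMS1 with loess and ATG9, ATG17 and ATG45 with processed signals were not called. RNA signal alone gave -0.058 for ATG5 and -0.77 for ATG20, and normexp 0.18 for ATG2. The cause of these sign changes was not tested.

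The count above the median gene was 12 with processed signals and 19 with loess, and the count below was 21 with loess. Restricted to the 6 genes found by the deposited names, both counts were 3 and the median was 0.080. The median of the 42 was -0.94 with normexp, -0.38 with processed signals and -0.14 with loess.

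Genes that differ between sessions numbered 0 with normexp, negative controls subtracted, processed signals, loess, RNA signal alone or outlier spots kept. They numbered 22 with only spots well above background, 12 with slide as a random block, and 0 to 2 with 1 array left out. Calls over all genes were not counted under these alternatives. Over 17 alternatives the adjusted p ranged from 2.7e-04 to 0.37 for AMS1, 3.5e-04 to 0.20 for APE1 and 6.3e-04 to 0.74 for ATG16, and the difference of ATG16 turned to -0.10 with processed signals and -0.054 with loess.

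Among pairs, RNA signal alone gave 0.46 for ATG3 minus ATG10, 0.75 for ATG8 minus ATG4, -0.50 for ATG17 minus ATG11 and 0.13 for PEP4 minus PRB1. Processed signals gave 0.95 for ATG7 minus ATG3, -0.24 for APE1 minus AMS1 and -0.018 for APE1 minus ATG19, where loess gave 1.77, -0.78 and -0.059. ATG17 minus ATG11 was -0.010 with negative controls subtracted. ATG3 minus ATG10 was 0.077 in session 2 alone and -0.11 to 0.0014 with 1 array left out. No paired analysis was possible because the arrays form 1 group, so no replicate number is shared between groups.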
